A study of Mus musculus with 15 samples.

Results

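The zinc finger copies described here are 6 genes of the deposited liver table, which holds 3505 others, namely Zfp970, Gm14403, Gm14410, Gm14419, Gm14421 and Gm14399. They were chosen by symbol from a gene-rich stretch of mouse chromosome 2, with their levels in these mice already known, and every row of the table had been selected for a difference between CCl4 and oil mice. That contrast is therefore given for the 6 genes as a description with no test. Comparisons of oil+EV with untreated mice and of CCl4+EV with oil+EV mice compare none of the animals by which the rows were selected, although all 15 libraries entered the fit and so shared 1 estimate of the spread.

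Whole-liver RNA was sequenced from 15 male wild type Swiss Webster mice, 3 in each of 5 groups, that were 4 to 5 weeks old at the start. Oil mice received corn oil intraperitoneally at 30 μl per 25 g body weight 3 times per week for 5 weeks. CCl4 mice received carbon tetrachloride at 4 μl in 26 μl corn oil on the same schedule, and the hepatocyte cytochromes that metabolize this solvent turn it into a reactive, injurious product. The oil+EV and CCl4+EV mice were additionally given 80 μg of hepatocyte extracellular vesicles (EVs) per 25 g, in 3 injections a week during the final 2 weeks, and untreated mice were littermates without injections. RNA came from liver frozen 36 h after the final dose of oil or CCl4. Corn oil was thus common to all groups but the untreated one. The vesicles came from cultured hepatocytes of 1 mouse cell line, AML12. Swiss Webster is an outbred stock, and the reads were aligned to a reference genome of another strain.

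KRAB zinc finger proteins form one of the largest families of DNA-binding proteins in mammals, and many of their genes lie in tandem clusters of near-identical copies. A typical member joins an amino-terminal KRAB domain, which recruits the corepressor Trim28 (KAP1), to a row of C2H2 zinc fingers that read DNA. Known targets of the family include transposable elements, where recruited enzymes lay down repressive histone and DNA methylation. The individual functions of these 6 genes are not given in the sources used here.

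Coordinates follow GENCODE for GRCm38. The set was made up of 5 protein-coding models and 1 unprocessed pseudogene, Gm14421, and none of the 6 overlapped another annotated gene. Gm14419 (chr2:177000956-177012787, plus strand), Gm14421 (chr2:177053516-177056838, minus strand), Gm14410 (chr2:177183453-177206421, minus strand), Zfp970 (chr2:177464733-177478129, plus strand) and Gm14403 (chr2:177498215-177509763, plus strand) lay within 508.8 kb of each other and are called the distal copies below. Zfp970 and Gm14403 were separated by 20.1 kb. Gm14399 (chr2:175129493-175142012, minus strand) lay 1.86 Mb before the nearest of them. From the first to the last of the 6, the annotation placed 66 genes on 2.38 Mb, of which 35 were protein-coding and 24 were unprocessed pseudogenes.

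How alike the copies are can be read from the start of their coding sequences, a stretch that encodes the beginning of the KRAB domain. The first 90 coding bases of the GENCODE transcripts of the 5 protein-coding genes are printed 5′ to 3′, with capitals at each base that differs from Zfp970.
Zfp970: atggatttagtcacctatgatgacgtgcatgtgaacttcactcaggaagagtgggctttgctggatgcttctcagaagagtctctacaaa
Gm14403: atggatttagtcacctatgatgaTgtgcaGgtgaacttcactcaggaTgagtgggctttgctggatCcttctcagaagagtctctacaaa
Gm14410: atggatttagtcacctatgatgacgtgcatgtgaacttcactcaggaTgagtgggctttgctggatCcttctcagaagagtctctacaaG
Gm14419: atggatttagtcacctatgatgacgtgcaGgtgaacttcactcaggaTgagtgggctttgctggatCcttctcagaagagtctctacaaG
Gm14399: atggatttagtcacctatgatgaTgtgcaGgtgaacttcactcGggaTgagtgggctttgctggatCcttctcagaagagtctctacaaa
Between 3 and 5 of these 90 bases differed from Zfp970 in the other 4 genes. Over the aligned coding sequence, Gm14410 and Gm14399 were the closest pair at 97.5% identity, and the other 9 pairs ranged from 87.4% (Zfp970 and Gm14399) to 92.2% (Gm14410 and Gm14419). Coding lengths ran from 1110 bases in Gm14410 to 1830 bases in Gm14399.

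Promoter sequences were found for Zfp970, Gm14403 and Gm14410 among the 6 genes in the RefSeq table of GRCm38.p6. Each covers 250 bases before and 50 bases after the annotated start and is printed 5′ to 3′ on the strand of its gene. Capitals mark the longest run of bases common to all 3, which is 54 bases long and contains the letters CCAAT.
Zfp970 (chr2:177464492-177464791, plus strand): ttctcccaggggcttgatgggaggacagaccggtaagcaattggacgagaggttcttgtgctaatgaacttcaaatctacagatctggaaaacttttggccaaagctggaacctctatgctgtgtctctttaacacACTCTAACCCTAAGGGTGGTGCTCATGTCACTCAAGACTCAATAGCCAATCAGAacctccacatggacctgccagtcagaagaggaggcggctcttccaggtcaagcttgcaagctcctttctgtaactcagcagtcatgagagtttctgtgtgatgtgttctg
Gm14403 (chr2:177497976-177498275, plus strand): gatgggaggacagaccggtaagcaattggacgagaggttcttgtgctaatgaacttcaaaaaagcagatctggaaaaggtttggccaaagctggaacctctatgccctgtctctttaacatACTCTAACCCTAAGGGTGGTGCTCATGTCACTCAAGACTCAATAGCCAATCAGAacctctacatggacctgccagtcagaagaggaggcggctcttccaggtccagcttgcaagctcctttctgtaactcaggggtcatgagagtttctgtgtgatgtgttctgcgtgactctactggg
Gm14410 (chr2:177206447-177206746, minus strand): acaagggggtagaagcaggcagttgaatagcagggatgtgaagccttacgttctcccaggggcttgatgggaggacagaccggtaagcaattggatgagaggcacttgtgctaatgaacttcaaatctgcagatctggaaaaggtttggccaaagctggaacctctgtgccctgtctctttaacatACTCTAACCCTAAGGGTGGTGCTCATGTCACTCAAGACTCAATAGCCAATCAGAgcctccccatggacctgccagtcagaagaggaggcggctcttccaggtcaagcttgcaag
Pairwise identity of these promoters over their aligned bases was 95.2% to 95.4%. The 54-base run was held by 30 of 32851 promoters in the table, belonging to 26 genes, and all 30 lay in the chromosome 2 interval from 1 Mb before the first to 1 Mb after the last copy. Of the genes with the run, 5 were rows of the liver table, namely the 3 copies above and their neighbours Gm14325 and Gm14326. The motif CCAAT, searched on both strands, had 2 matches in each of the 3 promoters and was present in 37.4% of all promoters. The letters TATAAA (13.6% of promoters) and GGGCGG (35.7% of promoters) were in none of the 3 on either strand.

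Because reads from near-identical copies cannot always be placed, the share of each gene's annotated sequence that recurs exactly in another gene was measured. Of 150-base windows, the length of 1 read of a pair, 0 of 1684 in Gm14403 and 131 of 2023 (6.48%) in Zfp970 recurred in another annotated gene. Gm14399 shared 31.4% and the pseudogene Gm14421 shared 33.2%. Gm14410 shared 68.1%, largely with Gm14308 (47.9%), and Gm14419 shared 77.5%, largely with Gm2004 (63.4%), and the liver table holds neither of these partners. At 50 bases the shares were 36.1% for Gm14403, 49.7% for Zfp970 and 69.8% to 94.3% for the other 4. Zfp970 and Gm14403, the copies with the most reads, shared no 150-base window with each other or with another of the 6 genes, whereas Gm14410 shared 121 windows with Gm14399 and 120 with Gm14419. How reads that match several places were counted is not given in the sources used here, so the values of Gm14410, Gm14419, Gm14421 and Gm14399 are uncertain to that extent. Copies outside the annotated transcripts were not compared.

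**Figure D1:**
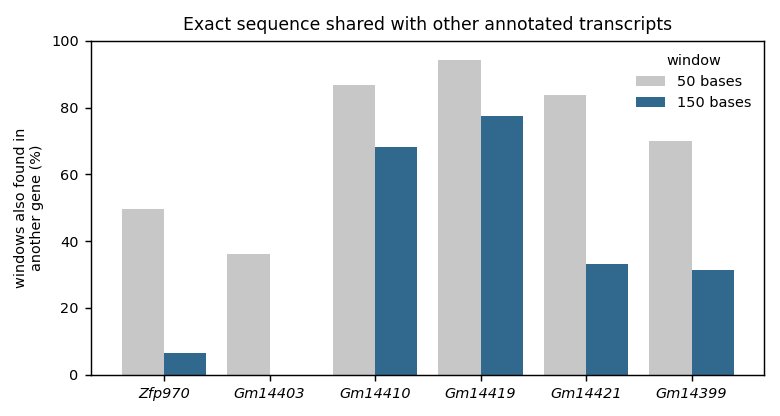
Share of sequence windows (percent, y axis) of each zinc finger copy that recur exactly in the annotated transcripts of another gene, for windows of 50 bases (grey) and 150 bases (blue). Gm14403 has no shared 150-base window and Zfp970 has 6.48%, while Gm14410 and Gm14419 share 68.1% and 77.5%.

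The table held 6106856 to 11055679 reads per library, recovered as whole reads from the deposited normalized counts. Oil replicates 2 and 3 were closer to each other than any of the other 14 pairs within groups (chi-square per gene of 2.14 against 29.36 to 160.25). They differed by more than sampling noise, which does not show whether they came from separate mice. Both were kept as separate libraries. Of the hepatocyte markers, 4 of 15 were rows of the table and were abundant in every library, with summed normalized counts of 357466 to 506335 in untreated, 324947 to 334665 in oil, 251250 to 325804 in oil+EV, 202350 to 205674 in CCl4 and 182471 to 212299 in CCl4+EV mice. Markers of stellate cells (6 of 11 in the table) summed to 7565 to 11309, 5652 to 7192, 4677 to 5718, 18078 to 23080 and 10890 to 12940 in the same order of groups, and 2 of 11 macrophage markers to 797 to 1599, 1455 to 1647, 913 to 1405, 3488 to 4079 and 1412 to 2067. The hepatocyte sum was thus lower and the stellate cell sum higher in mice given CCl4 than in oil mice, and their part in the levels of the copies was not tested. Every row had been selected for a difference between CCl4 and oil mice, so markers without such a difference are missing from these sums. That contrast of the sums is therefore a description only. Dividing-cell markers, all 7 of them in the table, summed to 3810 to 5389 in CCl4 mice and to 310 to 1097 in the other groups. In whole liver, fewer cells of a type and less RNA per cell cannot be told apart. The libraries are taken as separate mice from the account of the groups. The p-values set differences between groups against the spread between libraries of a group, estimated from all 15 libraries.

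Zfp970 was the most abundant of the 6 genes per length in the mean of every group, and it held 40.8% to 71.5% of the reads of the set in each library. Its normalized counts were 729, 1417 and 562 in untreated mice and 8307, 7593 and 7685 in oil mice. In oil+EV mice they were 5689, 4121 and 1249, in CCl4 mice 766, 1522 and 2322, and in CCl4+EV mice 730, 736 and 2915 (replicates 1 to 3 in each group). All 3 oil mice lay above every other mouse, and untreated, CCl4 and CCl4+EV mice overlapped. Group means were 903 ± 453 in untreated, 7862 ± 388 in oil, 3686 ± 2252 in oil+EV, 1537 ± 778 in CCl4 and 1461 ± 1260 in CCl4+EV mice (SD, n = 3).

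Gm14403, the neighbouring copy that shared no 150-base window with any other gene, followed the same order of groups. Its normalized counts were 458, 612 and 653 in untreated mice and 3179, 2497 and 2346 in oil mice. They were 2084, 1443 and 756 in oil+EV mice, 426, 805 and 880 in CCl4 mice, and 623, 499 and 899 in CCl4+EV mice. Again the oil mice did not overlap with any other group, and untreated mice lay within the range of the CCl4 mice.

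Gm14410, also a protein-coding model, had 93.5, 106.7 and 81.9 normalized counts in untreated mice and 555.4, 591.2 and 513.1 in oil mice. Oil+EV mice had 579.2, 542.8 and 269.8, CCl4 mice had 82.5, 264.8 and 233.8, and CCl4+EV mice had 226.2, 228.1 and 233.7. Oil+EV replicates 1 and 2 lay among the oil mice, and all 3 CCl4+EV mice lay above the untreated mice and below every oil+EV mouse. The CCl4+EV mice spanned only 7.5 normalized counts (229.3 ± 3.9, SD, n = 3), while CCl4 mice ranged over more than 3-fold.

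Gm14419 and the pseudogene Gm14421 were near the limit of detection without injections. For Gm14419 the normalized counts were 2.1, 1.9 and 1.4 in untreated, 58.1, 64.1 and 58.2 in oil, 66.8, 32.9 and 7.0 in oil+EV, 0.8, 14.6 and 16.6 in CCl4, and 6.6, 6.3 and 12.3 in CCl4+EV mice. For Gm14421 they were 3.2, 4.8 and 0.0 in untreated, 204.8, 159.8 and 140.2 in oil, 122.6, 96.9 and 17.4 in oil+EV, 4.9, 37.6 and 33.1 in CCl4, and 21.4, 21.2 and 42.5 in CCl4+EV mice. The 3 untreated libraries together held 5 reads of Gm14419 and 8 reads of Gm14421. Relative to depth, oil mice held 32.1 times as much Gm14419 (exact 95% interval for counting error 13.5 to 100.1) and 56.5 times as much Gm14421 (28.4 to 131.6) as untreated mice. The lowest Gm14421 value of an injected mouse, 4.9 in CCl4 replicate 1, was level with the highest of an untreated mouse, 4.8.

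Gm14399 ran opposite to the other 5 genes. Its normalized counts were 74.2, 82.7 and 79.1 in untreated mice, 10.6, 17.4 and 13.1 in oil mice, and 10.9, 14.1 and 40.7 in oil+EV mice. CCl4 mice had 61.3, 57.6 and 42.9, and CCl4+EV mice had 40.3, 38.4 and 41.7. The untreated mice were above all others and the CCl4 mice above all CCl4+EV mice, whereas oil and oil+EV mice overlapped.

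**Figure D2:**
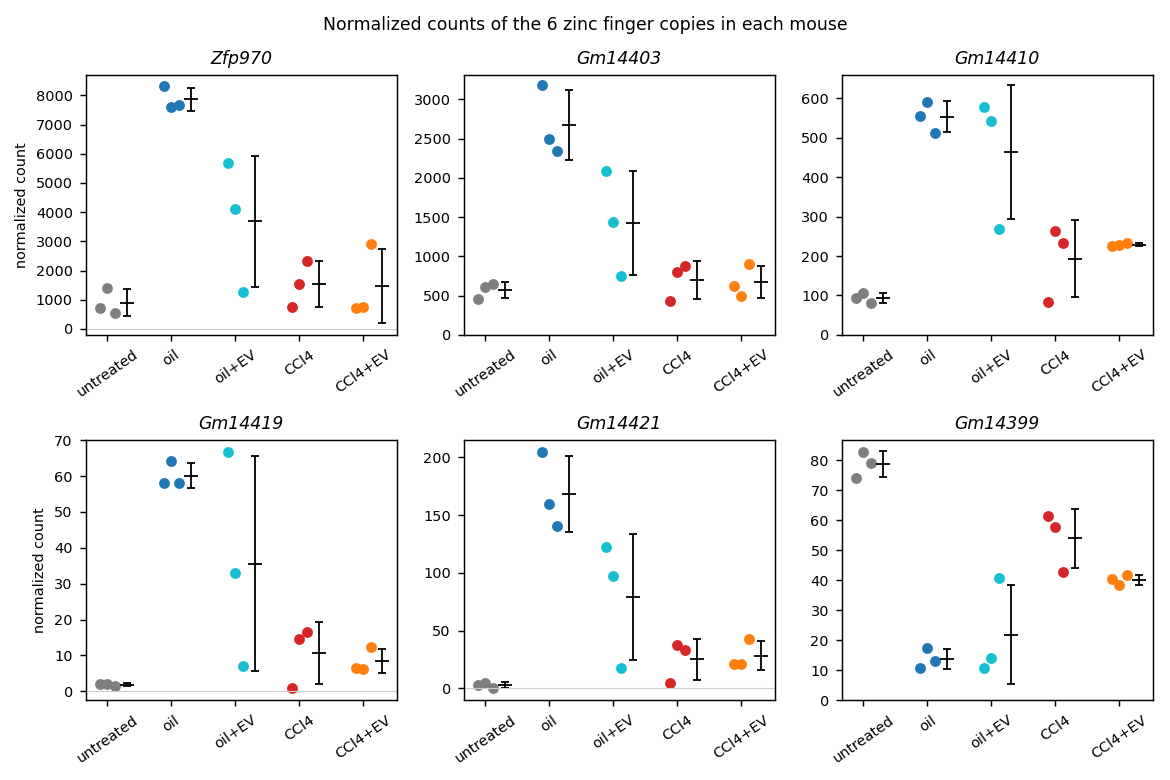
Normalized count (y axis, linear, own scale in each panel) of each zinc finger copy in each mouse (points, replicates 1 to 3 from left to right) by group, with the group mean and SD as black bars. Oil mice are the highest for Zfp970 (7593 to 8307) and Gm14403 (2346 to 3179) and are among the lowest for Gm14399 (10.6 to 17.4), and oil+EV replicate 3 is the lowest oil+EV mouse in the first 5 panels and the highest in the panel of Gm14399.

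The oil+EV mice were spread widely, and replicate 3 was at the end of their range in all 6 genes. It had the lowest oil+EV value of each distal copy and the highest of Gm14399, so that it lay on the side of the CCl4 and untreated mice each time. Within the CCl4 group, replicate 1 had the lowest value of all 5 distal copies and the highest of Gm14399. In the CCl4+EV group, replicate 3 had 2915 normalized counts of Zfp970 against 730 and 736 in the other mice, a gap that was not seen in Gm14410. What these differences between mice of a group go with was not tested.

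Per kilobase of exon, the mean normalized counts of oil mice were 3620 for Zfp970, 1615 for Gm14403, 231 for Gm14410, 85.9 for Gm14421, 22.4 for Gm14419 and 5.35 for Gm14399, and no 2 neighbours in that order overlapped. In untreated mice the order of levels per kilobase was Zfp970 (416), Gm14403 (347), Gm14410 (39.2), Gm14399 (30.7), Gm14421 (1.36) and Gm14419 (0.672). Zfp970 and Gm14403 overlapped there, as did Gm14421 and Gm14419. By its mean Gm14399 therefore stood at rank 4 of 6 in untreated, CCl4 and CCl4+EV mice and last in oil and oil+EV mice. It overlapped with the next gene below it, Gm14421, in CCl4 and CCl4+EV mice and with the next above it, Gm14419, in oil+EV mice.

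All 6 genes together took 0.0114% to 0.0249% of the reads of the table in untreated mice and 0.119% to 0.133% in oil mice. The range was 0.0321% to 0.105% in oil+EV, 0.0211% to 0.0593% in CCl4 and 0.0252% to 0.0729% in CCl4+EV mice. The ratio of Zfp970 to Gm14403 in normalized counts ran from 2.61 to 3.28 in oil mice and from 0.861 to 2.32 in untreated mice. For the pair most alike in coding sequence, Gm14410 and Gm14399, the ratio was 1.04 to 1.29 in untreated and 34.0 to 52.4 in oil mice. It was 53.1, 38.5 and 6.63 in oil+EV mice, 1.35, 4.60 and 5.45 in CCl4 mice, and 5.60 to 5.94 in CCl4+EV mice.

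**Figure D3:**
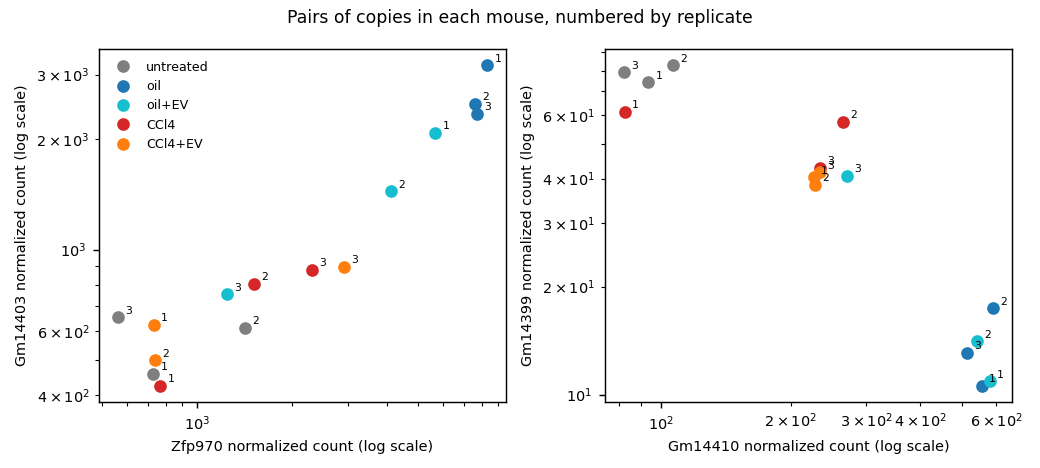
Normalized counts of Gm14403 against Zfp970 (left) and of Gm14399 against Gm14410 (right) in each of the 15 mice, both axes on log scales, coloured by group and numbered by replicate. On the left both genes are highest in the 3 oil mice, and on the right oil mice combine 513.1 to 591.2 Gm14410 with 10.6 to 17.4 Gm14399.

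Across the 15 libraries, the 10 pairs among the distal copies had Pearson correlations of 0.84 to 0.97 on the log2(normalized count + 1) scale, and 0.69 to 0.95 after the group means were removed. The 5 pairs with Gm14399 ranged from -0.93 to -0.87, and from -0.71 to -0.59 within groups. These values are a description over 15 points that share their groups, libraries and scaling. Of all 3510 other rows, Gm14403 was the most like Zfp970 (r = 0.95), and Gm14410 and Gm14419 were the most like each other (r = 0.97). Gm14410 was also the most like Gm14421 (r = 0.96). For each distal copy Gm14399 was the row with the lowest correlation of all. The row most like Gm14399 was Fam84b on chromosome 15 (r = 0.84).

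Outside the set, the rows most like the mean of the 6 genes were Hspb1 (r = 0.82), Foxa1 (0.81), Arid5b (0.81), Tiparp (0.80) and Gm48478 (0.76), on chromosomes 5, 12, 10, 3 and 9. Hspb1 encodes a small heat shock protein, and Foxa1 encodes a forkhead transcription factor of the liver. Mean normalized counts of Hspb1 were 101.9 ± 76.3 in untreated and 307.8 ± 33.9 in oil mice, and those of Foxa1 were 191 ± 46.2 and 430.1 ± 32.8 (SD, n = 3). These differences between oil and untreated mice were smaller as ratios than those of the distal copies.

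In oil against untreated mice, 6 of 6 copies passed the test, 5 higher and Gm14399 lower. The oil, the injections and other differences between these mice of an outbred stock cannot be told apart in this comparison. Of all rows 0.911% passed, 32 in all (0.712% higher and 0.199% lower), and the oil mice are also those by which the rows were selected. On the log2(normalized count + 1) scale, which understates the change of low genes, Zfp970 was 3.23 higher (SE 0.58, limma adjusted p = 0.00795), a 9.41-fold difference. Gm14403 was 2.22 higher (SE 0.33, limma adjusted p = 0.00223) and Gm14410 2.55 higher (SE 0.35, limma adjusted p = 0.00124). For Gm14419 the difference was 4.46 and for Gm14421 it was 5.85, the largest of all rows tested (limma adjusted p = 0.00795 and 0.00124). Gm14399 fell by 2.46 (SE 0.38, limma adjusted p = 0.00297), the ninth lowest of all rows. None of the 6 overlapped between the groups, whereas 15.1% of all rows were without overlap (6.75% higher and 8.32% lower). The median difference was 2.89 over the 6 genes and -0.07 over all rows. Without untreated replicate 3 the call of Zfp970 was lost (2.95, limma adjusted p = 0.0626), and the other 5 calls were made without any 1 library. The call of Zfp970 was also lost with a robust prior (limma adjusted p = 0.0603). Without untreated replicate 2, 334 rows passed in place of 32. With oil replicates 2 and 3 averaged as 1, all 6 copies still passed, and 19 rows passed in all.

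Whether oil-injected mice also differed from untreated mice in animals that played no part in selecting the rows was read from oil+EV against untreated mice. Again 6 of 6 copies passed, 5 higher and Gm14399 lower, in a comparison in which 31% of all rows passed (10.4% higher and 20.5% lower). The copies had been chosen with their levels in these mice known, so this count is not independent of that choice. The untreated mice are also the same as in oil against untreated mice, so this is not an independent repeat of that comparison. Zfp970 was 1.88 higher on the log2 scale (SE 0.58, limma adjusted p = 0.0241), Gm14403 was 1.21 higher (SE 0.33, limma adjusted p = 0.0151) and Gm14410 was 2.22 higher (SE 0.35, limma adjusted p = 0.00153). The low copies Gm14419 and Gm14421 were 3.25 and 4.39 higher (limma adjusted p = 0.0106 and 0.00427). Gm14399 fell by 2.02 (SE 0.38, limma adjusted p = 0.00465). The groups overlapped in Zfp970 alone of the 6, where oil+EV replicate 3 (1249) lay below untreated replicate 2 (1417). The median difference was 2.05 over the 6 genes and -0.11 over all rows. The oil+EV mice differ from untreated mice in both oil and vesicles, and these cannot be told apart here.

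These calls depended in part on how the spread was estimated. When only the oil+EV and untreated mice entered the fit, Gm14410 passed (limma adjusted p = 0.0218) and the other 5 did not (limma adjusted p = 0.065 to 0.105), with the same differences and with 22 rows passing in all. The call of Zfp970 was lost without untreated replicate 1 or 3 or oil+EV replicate 1 or 2, and that of Gm14403 without untreated replicate 1 or oil+EV replicate 1 (differences of 1.06 and 0.88). Those of the other 4 genes were made without any 1 library. A robust prior also ended the call of Zfp970 (limma adjusted p = 0.0582).

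CCl4+EV against oil+EV compares CCl4 with oil in mice other than those that selected the rows. All of these mice also received vesicles, so it is not the same comparison as CCl4 against oil. The choice of the copies, however, was made with their levels in these mice known. Of the 6 copies, 3 passed, namely Gm14403 and Gm14410 lower and Gm14399 higher with CCl4, where 49.6% of all rows passed (29.1% lower and 20.5% higher). A share of 3 in 6 is thus close to that of the table. Gm14403 fell by 1.01 on the log2 scale (SE 0.33, limma adjusted p = 0.0238), a 2.01-fold difference, and Gm14410 by 0.94 (SE 0.35, limma adjusted p = 0.0386). Gm14399 was 1.07 higher (SE 0.38, limma adjusted p = 0.0315). The differences of Zfp970 (-1.41, 95% interval -2.63 to -0.18, limma adjusted p = 0.0526), Gm14419 (-1.55, limma adjusted p = 0.104) and Gm14421 (-1.12, limma adjusted p = 0.227) did not pass. Only in Gm14410 did the groups not overlap, whereas 64.5% of all rows were without overlap (36.8% lower and 27.7% higher).

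Single libraries moved this comparison. Without oil+EV replicate 3 all 6 copies passed, Gm14399 as higher and the others as lower, and Zfp970 fell by 2.06 (limma adjusted p = 0.00976). Without oil+EV replicate 1 or 2, or CCl4+EV replicate 1 or 2, 0 of 6 passed in limma. Without CCl4+EV replicate 3, Gm14410 and Gm14399 did not pass and Zfp970 did (-2.07, limma adjusted p = 0.0195). Leaving out a CCl4 or untreated mouse moved only the shared spread, and Zfp970 passed as well without CCl4 replicate 1 or untreated replicate 2 (limma adjusted p = 0.048 and 0.0471), as did Gm14419 without CCl4 replicate 1 (limma adjusted p = 0.0437). Scaling the libraries by the total of the table, which moved the median of all rows from -0.12 to 0.26, left 1 of the 6 called, Gm14399, and kept the direction of all 6. The call of Gm14410 was also lost in limma with no trend (adjusted p = 0.0587) and with TMM scaling (adjusted p = 0.0731), and that of Gm14399 with only the compared groups in the limma fit (adjusted p = 0.0777) and in edgeR (adjusted p = 0.052). Gm14419 passed in edgeR (adjusted p = 0.0411) and DESeq2 (adjusted p = 0.0297).

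**Figure D4:**
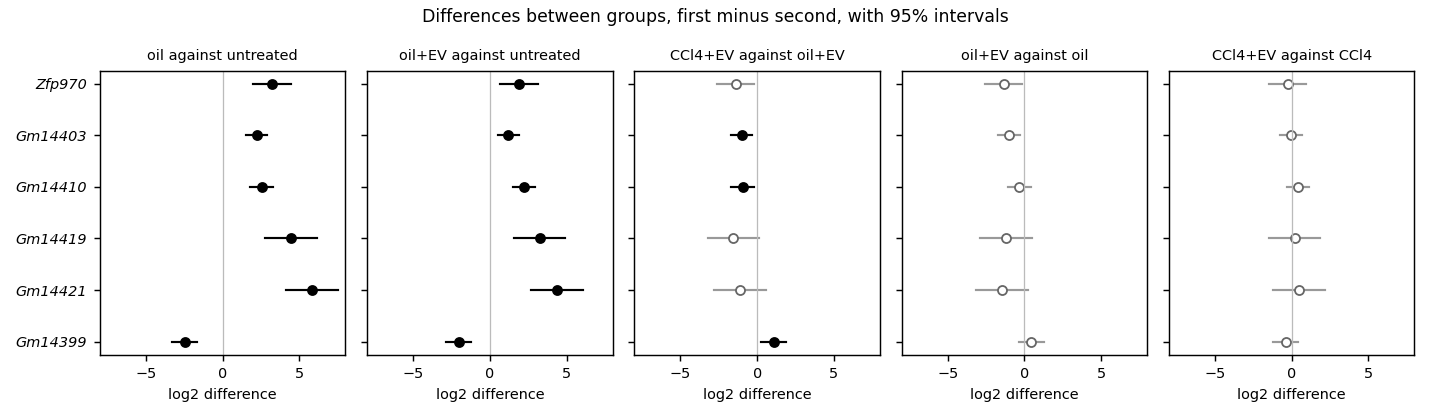
Log2 difference (x axis, on the log2(normalized count + 1) scale) of each zinc finger copy between the groups named above each panel, first minus second, with 95% intervals from limma. Filled points have an adjusted p under 0.05, and 6, 6, 3, 0 and 0 of the 6 genes do from left to right.

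In the CCl4 and oil mice that selected the rows, whose contrast is described here with no test, the 6 genes differed in those directions too. Zfp970 was lower by 5.63-fold with CCl4, Gm14403 by 3.95-fold, Gm14410 by 3.19-fold, Gm14419 by 7.72-fold and Gm14421 by 8.44-fold. Gm14399 was 3.76-fold higher. CCl4 and oil mice overlapped in none of the 6 genes on the contrast that the selection of the rows used.

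Vesicles in injured liver left the 6 copies without a detectable difference. For CCl4+EV against CCl4, 0 of 6 passed in limma, edgeR or DESeq2 and 0 had an unadjusted p under 0.05, where 5.67% of all rows passed (0.513% higher and 5.16% lower). Differences on the log2 scale were -0.26 for Zfp970 (95% interval -1.49 to 0.96), -0.04 for Gm14403 (-0.74 to 0.67) and 0.41 for Gm14410 (-0.33 to 1.15). They were 0.19 for Gm14419, 0.49 for Gm14421 and -0.40 for Gm14399, and the limma adjusted p was at least 0.654 for each of the 6. A difference of 1 log2 unit in at least 1 direction lies within the intervals of each gene but Gm14403, so the groups were not shown to be alike. The CCl4 and CCl4+EV mice did not overlap in Gm14399, as was the case in 28% of all rows (20% lower and 8% higher).

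In oil-injected mice, the mean levels of the 5 distal copies were lower with vesicles, but none of the differences passed the test. For oil+EV against oil, 0 of 6 copies passed in limma, edgeR or DESeq2, and 0.228% of all rows passed (0.142% higher and 0.0854% lower). Unadjusted, 2 of the 6 had limma p under 0.05, Zfp970 (-1.35, SE 0.58, limma adjusted p = 0.213) and Gm14403 (-1.01, SE 0.33, limma adjusted p = 0.153). Zfp970, Gm14403 and Gm14421 (-1.46, limma adjusted p = 0.266) were lower in all 3 oil+EV mice than in any oil mouse, a pattern that 23.1% of all rows had (13.4% had the opposite). Gm14410 (-0.33) and Gm14419 (-1.21) overlapped between the groups, as did Gm14399 (0.44). Without oil+EV replicate 3, Zfp970 was at -0.70 and Gm14403 at -0.61, and Gm14410 and Gm14399 changed sign. The difference between the vesicle effects with CCl4 and with oil passed for 0 of 6 genes in limma, edgeR or DESeq2, with 0 unadjusted p under 0.05 (1.97% of all rows passed, 0.057% as higher and 1.91% as lower). It was 1.09 for Zfp970 (95% interval -0.64 to 2.82) and 0.97 for Gm14403 (-0.02 to 1.97).

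Within 1 Mb of the copies lay 8 other rows of the table, namely Gm14387, Gm14412, Gm14325, Gm14327, Gm14326, Zfp931, the ATP synthase subunit gene Atp5e and Prelid3b. Several of them share sequence with the copies. At 50 bases, Gm14421 shared 61.4% of its windows with Gm14387, and Gm14399 shared 54.0% with Gm14326 and 42.1% with Gm14325. Gm14327, Zfp931 and Gm14412 shared smaller parts with the copies. In oil against untreated mice 0 of these 8 passed in limma, with differences from -0.38 (Gm14412) to 1.50 (Gm14387, limma adjusted p = 0.201). Only 0.911% of all rows passed there in limma, so 0 of 8 does not set the neighbours apart from the table. Unadjusted, 3 of the 8 had limma p under 0.05, where 524 rows of the whole table did. Of the 8, 1, Gm14325, passed in edgeR and DESeq2. Gm14325 and Gm14326, which hold the 54-base promoter run, were 0.79 and 0.55 higher in oil mice (limma adjusted p = 0.0719 and 0.286). Their mean normalized counts were 264.3 and 164.5 in untreated mice and 455.7 and 241.8 in oil mice. In oil+EV against untreated mice, 2 of the 8 passed in limma, Atp5e (-0.81) and Prelid3b (-0.43), both lower, where 31% of all rows passed. Only Atp5e passed there in edgeR, and DESeq2 called Gm14325 (mean normalized counts of 342.8 against 264.3) besides those 2 genes. In CCl4+EV against oil+EV mice, Gm14325 (-0.65), Gm14327 (-0.93) and Prelid3b (-0.33) passed in limma as lower and Gm14412 (0.91) as higher, and edgeR and DESeq2 called these but Prelid3b. Of all rows 49.6% passed there in limma. Gm14412, which lies between Gm14410 and Zfp970, thus differed in the direction of Gm14399 there.

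**Figure D5:**
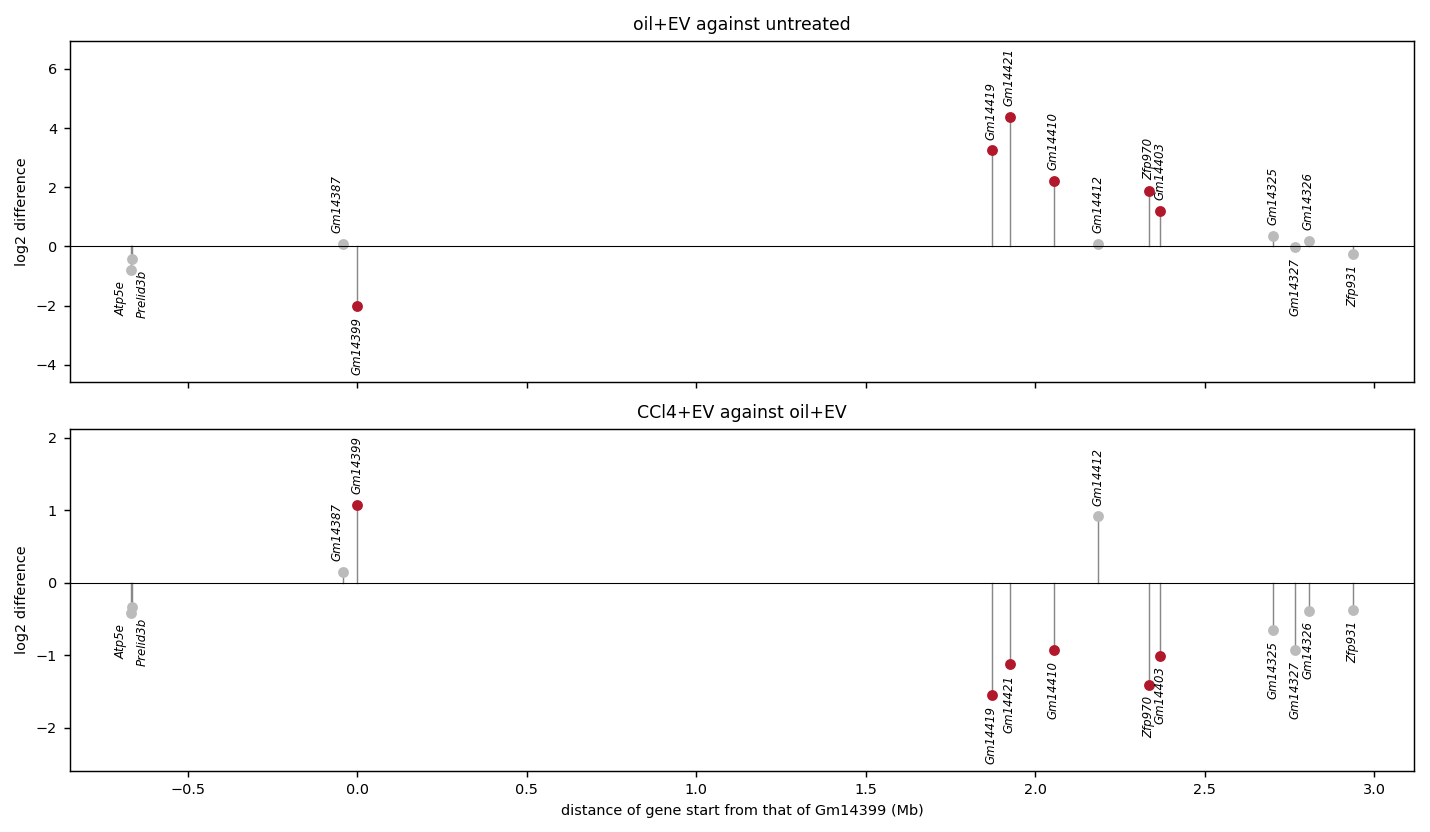
Log2 difference (y axis) of the 6 zinc finger copies (red) and the 8 other rows within 1 Mb of them (grey) against the distance of each gene start from that of Gm14399 in Mb (x axis), for oil+EV against untreated mice (top) and CCl4+EV against oil+EV mice (bottom). In the upper panel the 5 distal copies stand between 1.21 and 4.39 and Gm14399 at -2.02, while the grey rows lie between -0.81 and 0.36.

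Of a list of 32 genes around KRAB repression, mostly corepressors and chromatin genes, 6 were rows of the table, namely Atf7ip, Uhrf1, Dnmt1, Dnmt3a, Hells and Zfp809, the last itself a KRAB zinc finger gene. In limma, 1 of these 6 passed in any of the tested comparisons. Dnmt3a, a DNA methyltransferase, was 0.72 higher in CCl4+EV than in oil+EV mice (SE 0.18, limma adjusted p = 0.00782), with means of 1117 ± 23.1 and 690 ± 171 normalized counts (SD, n = 3). Of all rows 49.6% passed in that comparison. In edgeR and DESeq2, Dnmt1 passed there as well, Atf7ip passed in oil+EV against untreated mice and Uhrf1 in CCl4+EV against CCl4 mice. DESeq2 alone also called Hells in CCl4+EV against CCl4 mice and Zfp809 in oil against untreated mice. The other 65 zinc finger rows of the table, outside the cluster, passed in limma in 15 cases as higher and 15 as lower in CCl4+EV against oil+EV mice, a share near the 49.6% of all rows. In oil+EV against untreated mice, 8 passed as higher and 1 as lower, where 10.4% of all rows passed as higher and 20.5% as lower. In oil against untreated mice, where all 6 copies passed, 0 of the 65 passed in limma or edgeR and 2 in DESeq2. Only 0.911% of all rows passed there in limma, so 0 of 65 does not set these genes apart from the table. Unadjusted, 8 of the 65 had limma p under 0.05, where 524 rows of the whole table did.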

How the data were processed

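Liver RNA of 15 mice was measured as described above. Per the paper's methods, libraries were made with a stranded kit after removal of ribosomal RNA, reads were aligned with STAR to GRCm38.p3, and Gencode genes were counted with featureCounts. The deposited signal is the read count of each gene divided by a size factor of its library, as the authors normalized it. The authors' own columns for CCl4 against oil (log2 fold change, standard error, test statistic, p-value and adjusted p) were not used. Dividing each library by the value of 1 read gave whole reads for 100% of values within 0.05.

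Tests were run with limma 3.58.1 (R 4.3.3) on log2(normalized count + 1) of all 15 libraries, with a mean-variance trend, two-sided, adjusted by Benjamini-Hochberg over 3511 rows at a threshold of 0.05, with no filter on low values. The copies, lists and tests were chosen with earlier results of these data known. Named genes were the copies, rows within 1 Mb, the rows most alike and listed KRAB corepressors. Deviations of same-numbered CCl4 and CCl4+EV mice correlated at 0.23, 0.18 and 0.17. Mice with different numbers were not compared, so a pairing was not tested, and no source says what a number marks. Alternatives were pseudocounts of 0.5 and 5, a mean of at least 10, a fit with no trend, with a robust prior or with only the compared groups, the replicate block, other scalings, edgeR 4.0.16 and DESeq2 1.42.0 on recovered reads, leaving out each mouse, and, chosen after seeing the data, oil replicates 2 and 3 averaged as 1. Tests were checked on simulated counts with 1 setting of the spread for all rows. That check does not cover the wide spread of copies such as Zfp970. Exact windows were compared between GENCODE M21 transcripts. Intervals of the Gm14419 and Gm14421 ratios cover counting error only. The 95% intervals of log2 differences are from limma and rest on the spread between libraries.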

Additional observations from a re-analysis of the deposited data

How the results depend on the processing

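Over the 6 genes and all comparisons, 916 alternative values kept their direction and side of the threshold (or, with no test, moved by less than the spread between mice), 34 lost a call, 9 gained one, 17 changed sign and 2 untested values moved by more. With the replicate number as a block, 3 copies were called for CCl4+EV against oil+EV, 6 for oil+EV against untreated, 6 for oil against untreated and 0 for the other comparisons, so the block changed no count. For CCl4+EV against oil+EV, scaling by the total of the table gave 1 call in place of 3, and leaving out 1 library gave 0 to 6. For oil+EV against untreated, fitting only those groups gave 1 call in place of 6 and leaving out 1 library gave 4 to 6, and for oil against untreated leaving out 1 library gave 5 to 6. Every change of sign was in a difference that passed neither before nor after. For CCl4+EV against CCl4, Gm14419 was at -0.04 with a pseudocount of 5, -0.29 in edgeR and -0.31 in DESeq2, and Gm14403 was at 0.01 with TMM scaling and 0.03 with scaling by the total of the table. Leaving out 1 library there gave -0.93 to 0.11 for Zfp970, -0.36 to 0.16 for Gm14403, -0.12 to 0.72 for Gm14410, -0.87 to 0.77 for Gm14419 and -0.38 to 0.97 for Gm14421, and for oil+EV against oil it gave -0.53 to 0.02 for Gm14410 and -0.11 to 0.80 for Gm14399.

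Counts over all rows moved by more than 1.5 times as well. Apart from leaving out libraries, they went from 1087 to 22 for oil+EV against untreated with only the groups compared, from 199 to 304 in DESeq2 for CCl4+EV against CCl4, from 8 to between 0 and 146 for oil+EV against oil, from 32 to between 17 and 99 for oil against untreated, and from 69 to between 33 and 150 for the difference of the vesicle effects. Leaving out 1 library gave 918 to 1999 in place of 1740 for CCl4+EV against oil+EV, and in the same order 395 to 1369, 94 to 230, 0 to 74, 20 to 334 and 20 to 94 for the other comparisons. Scaling moved the split of calls: of 1740 rows called for CCl4+EV against oil+EV, 719 were higher, against 903 of 1577 with TMM and 1224 of 1407 with the total of the table, and of 1087 called for oil+EV against untreated, 366 were higher, against 508 of 971 and 880 of 954. The untreated values of Gm14419 and Gm14421 rest on 5 and 8 reads, which limits the precision of their ratios. Groups of 3 mice limit all others.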
